A study of Homo sapiens with 2 samples.

Results

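The very early intervals are the nascent strand intervals that the deposited replication timing lists place in the first of 6 timing classes. They were taken as every name in the very early list on chromosomes 1 to 22 and X, with repeated lines of a name joined into 1 span, which gave 23090 of the 161770 intervals on these chromosomes (14.3%, exact 95% binomial interval 14.1% to 14.4%). They covered 18.5 Mb, or 13.0% of the 142.6 Mb that all intervals covered. One further very early name lay on chromosome Y and was not used. The class was assigned from timing data that were not analysed here, so it could not be checked.

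The study sequenced nascent strands from U2OS, a human osteosarcoma cell line labelled as wild type. The cells were synchronised by a double thymidine block and collected 2 hours after release. The 2 libraries form 1 group, without an unsynchronised or undigested library among the samples. The deposited lists are labelled as the intersection of both libraries. Of a very early interval's bases, a median of 60.5% lay in pieces of peaks that both libraries share. The peak values are those of replicate 1 peaks, and none is given for replicate 2. The labels leave unstated whether separate cultures were used. Errors given as SD are spreads between chromosomes of 1 interval set, binomial intervals cover counting error only, and the number of reads behind an interval is unknown.

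Origins of replication are prepared in G1, when the origin recognition complex, CDC6 and CDT1 load the MCM helicase onto DNA, and a part of them fires in S phase under the control of the kinases CDC7 and CDK. Each new strand starts from a short RNA primer, and lambda exonuclease, which digests DNA without such a primer, leaves short nascent strands from around active origins. Replication timing is a property of large stretches of a chromosome, and in many human cell types early replicating stretches are rich in genes and open chromatin. Soon after release from a thymidine block, cells are in early S phase, the time at which such stretches are copied.

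The very early share of intervals differed between chromosomes. Chromosome 17 had the highest share, with 2239 of 9828 intervals in the very early class (22.8%, exact 95% binomial interval 21.96% to 23.6%). Chromosome 7 was close to it, with 1882 of 8547 (22.02%, 21.1% to 22.9%), and the binomial intervals of these chromosomes overlap. Chromosome 15 (19.1%) and chromosome 19 (17.9%) came next, and their intervals, 18.1% to 20.1% and 17.1% to 18.7%, also overlap. At the other end stood chromosome X with 106 of 2280 intervals (4.65%), chromosome 4 with 209 of 4223 (4.95%) and chromosome 13 with 115 of 2035 (5.65%). The median over the 23 chromosomes was 12.8%. By number of intervals, 7 chromosomes held more than 50% of the class. Intervals of all classes together were also unevenly spread, from 1651 on chromosome 21 to 16592 on chromosome 1. These binomial bounds hold counting error alone, as if neighbouring intervals were independent, which they are not.

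**Figure D1:**
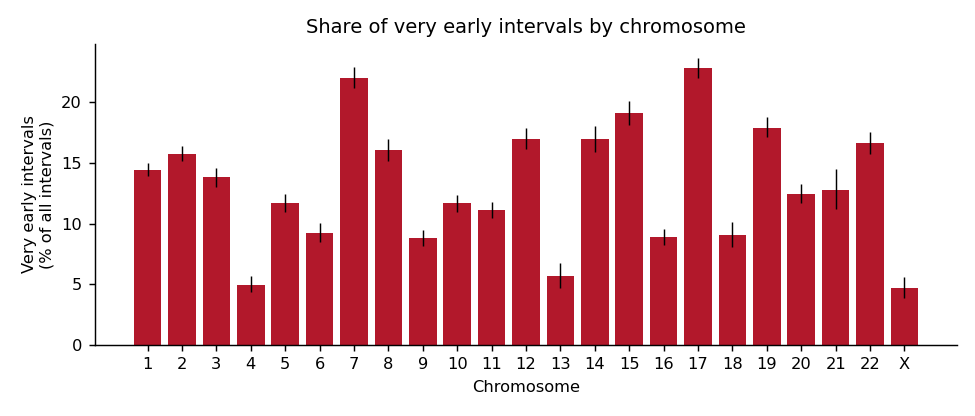
Very early intervals as a percentage of all nascent strand intervals on each of the 23 chromosomes. Bars are the shares and lines their exact 95% binomial intervals. Chromosomes 17 and 7 stand highest at 22.8% and 22.02%, and chromosome X lowest at 4.65%.

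On a finer scale, 982 of the 2842 windows of 1 Mb that held any interval (34.6%) held a very early one. Of all windows, 148 (5.21%) held 50% of the class, and 517 held 90%. These counts were not made for all intervals or for another class, so they do not set the very early class apart. Very early intervals were the majority in 149 windows and the only class in 4. The fullest window held 230 very early intervals. The first and last 5 Mb were counted, here and below, from the outermost intervals of any class on a chromosome, which can lie far from its tip. Very early intervals were less frequent in these chromosome ends: 1891 of 23090 (8.19%) lay there, against 28043 of 138680 intervals of the other 5 classes (20.2%). Early intervals, with 5337 of 41882 there (12.7%), also stood below this pool, which includes them. A low share in the ends is thus not particular to the very early class. Against the other 5 classes together, the very early share was the lower one on 19 of 23 chromosomes and the higher one on 4. Chromosomes 3, 6, 21 and X were the exceptions. Chromosome 21 had 65.4% of its very early intervals in these ends, against 62.2% of its other intervals, and chromosome 15 had 0 of its 1227 there.

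Along the chromosome, the very early intervals formed 2236 uninterrupted runs, a run being a stretch of neighbouring very early intervals with none of another class between them. A run held a median of 5 intervals, with quartiles of 2 and 12. Single intervals made up 397 runs, and 715 runs held 10 or more. Those 715 runs together contained 17643 intervals (76.4% of the class) and spanned 148.7 Mb. Nearly all borders were with the next class in time: of 4465 borders with another class, 4187 (93.8%) were with the early class, 252 (5.64%) with mid early, 22 with mid late, 3 with late and 1 with very late. In 1979 runs (88.5%) both neighbours were early. The neighbours of the intervals thus stood near them in the timing order. Early intervals were 41882 of the 138680 intervals of the other 5 classes. Where timing follows large stretches, neighbouring classes adjoin by construction, so these borders do not check the label.

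Very early runs were longer and more thinly filled than early runs. Among runs of at least 10 intervals, the median number of intervals per 100 kb of run on a chromosome was 14.2 ± 3.61 in the very early class and 22.96 ± 3.55 in the early class (mean ± SD, n = 20 chromosomes). Very early runs held 0.607 times as many intervals per 100 kb as early runs, and fewer on all 20 chromosomes (two-sided sign-flip permutation test over chromosomes, adjusted p = 1.33e-05). Chromosome medians ranged from 9.13 on chromosome 14 to 22.3 on chromosome 19 for very early runs, and from 15.7 on chromosome 18 to 28.9 on chromosome 22 for early runs. The ranges overlap, although each chromosome's very early median lay below its own early median.

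The span of these runs differed in the other direction. It was 154 ± 44.6 kb in the very early class and 83.0 ± 13.8 kb in the early class, a ratio of 1.81 that was above 1 on all 20 chromosomes (permutation test, adjusted p = 2.0e-05). The longest median span, 255.6 kb, was that of very early runs on chromosome 14, the chromosome where these runs were thinnest. Runs of 500 kb or more numbered 58 in the very early class and 12 in the early class. Runs of the other 5 classes, early included, were formed within each class and then pooled. Against this pool, very early runs held 0.654 times as many intervals per 100 kb (14.2 ± 3.61 against 21.3 ± 3.66). They were 1.49 times as long (154 ± 44.6 kb against 100.5 ± 14.9 kb). Each difference held on 20 of 20 chromosomes (permutation tests, adjusted p = 1.33e-05 for both). Classes other than early were not compared separately, among them very late, the other end of the timing order. Very early runs can border later classes only, while early runs can border both an earlier class and later ones. How far the span of runs depends on this place in the order was not tested. These 4 comparisons were chosen after the data were examined. A run must hold 10 intervals to be counted, so a thinner class needs a longer span, and density and span are not independent of each other.

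**Figure D2:**
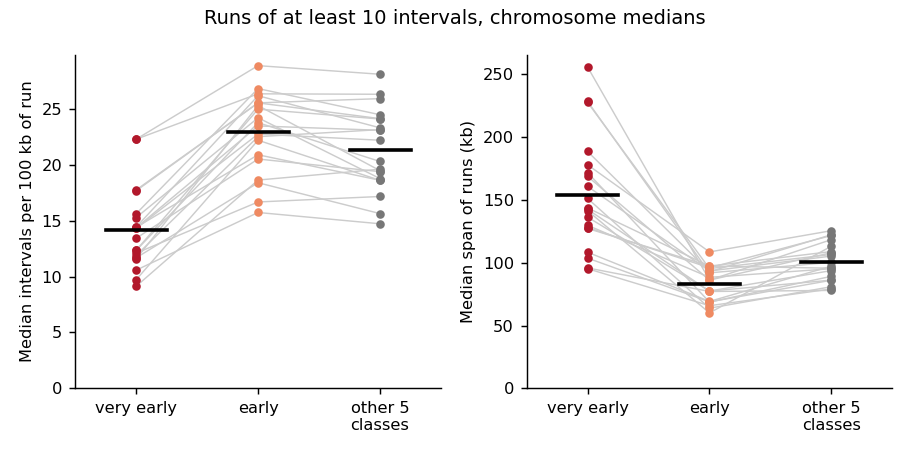
Median number of intervals per 100 kb of run (left) and median span of runs in kb (right), for runs of at least 10 intervals. Sets are the very early class, the early class and the pooled runs of the other 5 classes, early included. Each point is 1 of 20 chromosomes, grey lines join a chromosome's values and bars are means. Very early runs average 14.2 intervals per 100 kb over 154 kb, early runs 22.96 over 83.0 kb.

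The 10 runs with most intervals together held 1335 very early intervals (5.78% of the class). The first lay on chromosome 7 from 100929080 to 101590287 in hg19 and held 184 intervals over 661 kb. It was filled with 27.8 intervals per 100 kb, which covered 28.0% of its sequence. Their median fold enrichment, the authors' ratio of a replicate 1 peak over the background of the peak caller, was 5.07, and the highest was 30.8. A second run on chromosome 7, from 100186132 to 100551031, held 110 intervals, which covered 43.6% of its 364.9 kb, the highest coverage among the 10. Its intervals had a median width of 886.5 bp and a median distance of 573 bp to the nearest interval.

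The run with the second largest number of intervals was of another kind. It lay on chromosome 8 from 29222438 to 30310034 and spread 182 intervals over 1087.6 kb, at 16.7 per 100 kb. They covered 9.52% of it. Both their median width (419 bp) and their median enrichment (4.09-fold) were the lowest of the 10 runs, and its far side bordered a mid early interval where the other 9 runs bordered early ones on both sides. The run on chromosome 2 from 237442525 to 238441130 was similar, with 180 intervals over 998.6 kb, 12.4% of its sequence covered and a median enrichment of 4.26-fold. So was the run on chromosome 2 from 46411424 to 47202109, with 127 intervals over 790.7 kb, 11.8% covered and a median of 4.24-fold. The 3 longest of the 10 runs were thus also the 3 with the lowest coverage and the lowest median enrichment. The 10 were taken for their number of intervals, so a longer span goes with lower coverage in part by construction.

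The remaining 5 runs held 99 to 141 intervals over 343 to 573.5 kb. They lay on chromosome 22 from 27564027 to 28016602 (141 intervals, 31.2 per 100 kb, the densest of the 10), on chromosome 20 from 48552376 to 48925379 (108 intervals), on chromosome 1 from 201655259 to 202107661 (103), and on chromosome 17 from 40098820 to 40672324 (101) and from 76392439 to 76735714 (99). The run on chromosome 20 had the widest intervals of the 10, with a median of 925.5 bp, and the highest median enrichment, 5.34-fold. The genes at these positions were not analysed here.

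**Figure D3:**
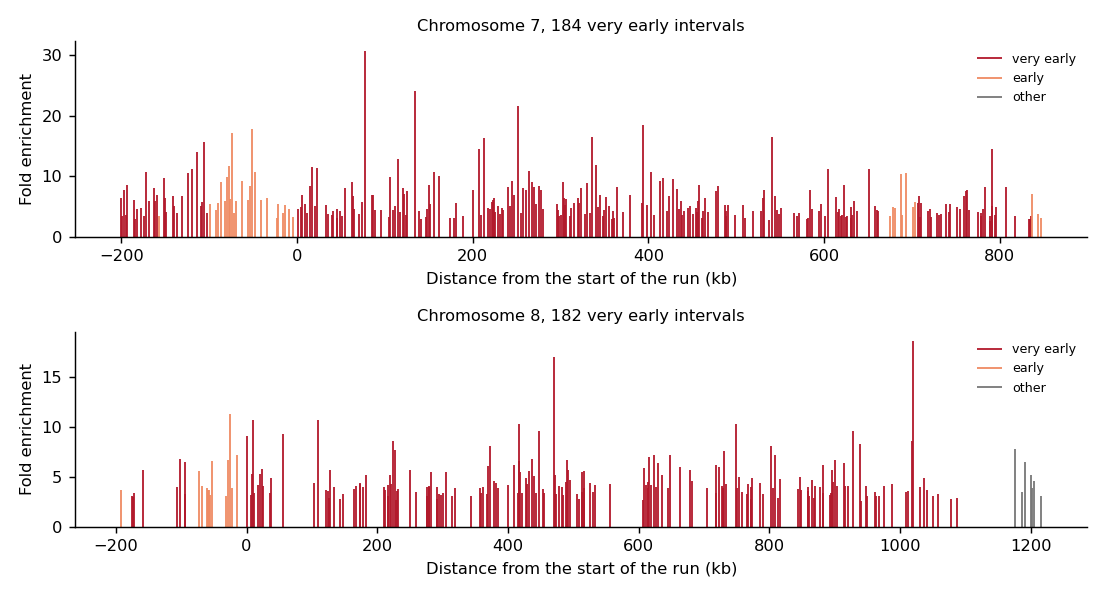
Fold enrichment of every interval in the 2 runs with most very early intervals, on chromosome 7 (184 intervals, top) and chromosome 8 (182 intervals, bottom), and in 200 kb on either side, against the distance from the start of the run in kb. Each line is 1 interval at its centre, coloured by timing class. The run on chromosome 7 holds 27.8 intervals per 100 kb and reaches 30.8-fold, and the run on chromosome 8 holds 16.7 per 100 kb and reaches 18.6-fold.

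A single very early interval was short and of modest enrichment. Width had a median of 529 bp, with quartiles of 284 and 975 bp and the highest 10% above 1702 bp. Enrichment had a median of 4.62-fold, with quartiles of 3.72 and 6.18 and the highest 10% above 8.62 (n = 23071 intervals with a joined peak). The distance to the nearest interval of any class had a median of 1526 bp. It was at most 1 kb for 8711 intervals (37.7%), over 10 kb for 2956 (12.8%) and over 100 kb for 59 (0.256%). The same shares were 43.0%, 9.73% and 0.308% of early intervals, and 41.6%, 13.4% and 1.41% of intervals of the other 5 classes together. Very early intervals thus had the smallest share within 1 kb of a neighbour and also the smallest share more than 100 kb from one. These shares were not tested.

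Within the class, wider intervals were more enriched and lay closer to a neighbour. The 2842 intervals of up to 200 bp had a median enrichment of 3.89-fold (quartiles 3.37 and 4.58) and a median distance of 2776.5 bp to the nearest interval. The 654 intervals over 3000 bp had 7.62-fold (6.20 and 9.95) and 703 bp, and the 3 width classes between them lay in order on both measures. Across the intervals, Spearman's rho was 0.40 between width and enrichment and −0.24 between width and the distance to the nearest interval. These are descriptions across intervals that share libraries and peak caller, and a wide interval has more bases in which to overlap a peak.

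The 5 widest very early intervals measured 10 to 12 kb. They lay on chromosome 17 from 48276700 to 48288927 (12228 bp, 12.7-fold), on chromosome 22 from 46298553 to 46310740 (12188 bp, 13.2-fold), on chromosome 17 from 61772769 to 61783342 (10574 bp, 7.98-fold), on chromosome 7 from 100478919 to 100489125 (10207 bp, 12.3-fold) and on chromosome 22 from 24814218 to 24824417 (10200 bp, 9.88-fold). Each held 4 to 9 pieces that both libraries share. In 4 of the 5, the pieces of both libraries covered 61.6% to 84.0% of the interval, and the second widest had 51.3% in 9 pieces. The interval on chromosome 7 lies in the second of the chromosome 7 runs above.

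The most enriched intervals were of a different shape. The highest value, 200-fold, belonged to an interval of 145 bp on chromosome 10 from 99438625 to 99438769, in a run of 13. It was followed by 126 bp on chromosome 16 from 3899374 to 3899499 (168-fold), the outermost interval of a run of 67, and by 220 bp on chromosome 13 from 110076471 to 110076690 (157-fold), which stood alone, 40463 bp from the nearest interval. An interval of 111 bp on chromosome 21 from 34949903 to 34950013 (117-fold) stood 64265 bp from its nearest neighbour. In these 4 the shared piece covered 92.4% to 99.1% of the interval.

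The other 6 of the 10 most enriched intervals were 565 to 1911 bp wide. They lay on chromosome 2 from 24299050 to 24300748 (137-fold), chromosome 14 from 62358704 to 62359485 (125-fold), chromosome 21 from 46706713 to 46708623 (115-fold), chromosome 9 from 130374854 to 130375569 (108-fold), chromosome 19 from 6361590 to 6362509 (107-fold) and chromosome 16 from 5037650 to 5038214 (104-fold). All 10 held exactly 1 shared piece. Their enrichment is that of a replicate 1 peak. Enrichment of 20-fold or more was reached by 167 very early intervals (0.724%, exact 95% binomial interval 0.619% to 0.842%), against 355 early intervals (0.848%, 0.763% to 0.941%) and 1287 intervals of the other 5 classes (0.929%, 0.879% to 0.981%). The difference in these shares was not tested over chromosomes.

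Intervals in runs of many intervals were wider, more enriched and closer together than those in runs of few intervals. Median width was 407 bp for the 397 intervals that stood alone, 483 bp in runs of 4 to 9, 564 bp in runs of 20 to 49 and 596.5 bp in the 54 runs of 50 or more. Median enrichment took the same order, with 4.23, 4.54, 4.70 and 4.77-fold. The distance to the nearest interval of any class was 18586 bp for intervals alone, 2280.5 bp in runs of 4 to 9 and 1068 bp in runs of 50 or more. On chromosomes, intervals in runs of 20 or more had a median width of 552.5 ± 98.5 bp and those in runs of 3 or fewer 433.7 ± 76.5 bp (mean ± SD, n = 22), and the first was the larger on 20 of 22. The medians of enrichment were 4.67 ± 0.23 against 4.40 ± 0.35, larger on 19 of 22. The share of intervals with 2 or more shared pieces was 16.2% in runs of 50 or more and 8.56% for intervals alone. A run is counted in intervals, so its size and the distances in it are linked, and these orders were not tested.

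**Figure D4:**
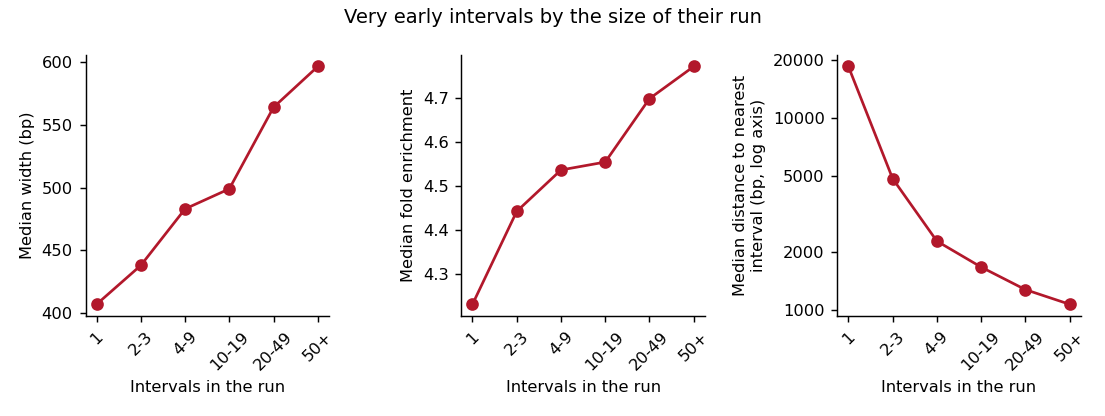
Median width in bp (left), median fold enrichment (centre) and median distance to the nearest interval of any class in bp on a log axis (right) of very early intervals, grouped by the number of intervals in their run. Width runs from 407 bp for intervals alone to 596.5 bp in runs of 50 or more, and enrichment from 4.23 to 4.77-fold.

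Compared with early intervals, the next class in time, very early intervals were set further apart and were narrower and less enriched. The median distance to the nearest interval of any class was 2164 ± 1564 bp for very early and 1666 ± 936 bp for early intervals (mean ± SD of chromosome medians, n = 23). Very early chromosome medians ran from 1042 bp on chromosome 22 through 1676 bp in the middle to 8418 bp on chromosome 4, and early ones from 889 bp on chromosome 22 through 1293 bp to 4464.5 bp on chromosome 4. The distance was 1.26 times as long in the very early class, and the longer one on 20 of 23 (permutation test, adjusted p = 5.67e-05). Chromosomes 5, 7 and X went the other way.

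Very early intervals had a median width of 510.6 ± 67.8 bp, against 560.3 ± 88.3 bp for early intervals, narrower on 20 of 23 chromosomes and tied on 1 (permutation test, adjusted p = 7.29e-05). Their median enrichment was 4.58 ± 0.21-fold, against 4.75 ± 0.23-fold for early intervals, and 22 of 23 chromosomes had the lower value in the very early class (permutation test, adjusted p = 5.67e-05). Width and enrichment belong to the same peaks, so each was also compared at like values of the other. At like fold, with intervals divided at fold values of 3.79, 4.73 and 6.38, very early intervals were 0.930 times as wide as early ones (535.6 ± 67.7 against 575.8 ± 76.7 bp), and narrower on 20 of 23 chromosomes (permutation test, adjusted p = 1.24e-04). At like width, divided at 294, 558 and 1057 bp, their fold was 0.984 times that of early intervals (4.68 ± 0.16 against 4.76 ± 0.17), with the lower value on 19 of 23 (permutation test over chromosomes, adjusted p = 0.00125). The difference in enrichment was smaller at like width than with all widths together, where the ratio was 0.964. The difference between these ratios was not tested.

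Fewer very early than early intervals were cut into pieces, a share that was not compared at like width. A wider interval has more room for several pieces, and very early intervals were the narrower ones. The share holding 2 or more pieces that both libraries share was 11.9 ± 3.59% in the very early class and 14.4 ± 4.24% in the early class (mean ± SD, n = 23), lower on 21 of 23 chromosomes by an average of −2.53 percentage points (permutation test, adjusted p = 5.67e-05). The lowest shares of both classes were on chromosome 13, at 1.74% for very early and 4.33% for early intervals. The highest were on chromosome 19, at 17.7% and 21.7%. The part of an interval's bases covered by peaks of both libraries was 60.6 ± 2.08% in very early and 60.2 ± 1.65% in early intervals. It differed by 0.467 ± 2.00 percentage points, within the spread between chromosomes (higher on 12 of 23, permutation test, adjusted p = 0.292).

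**Figure D5:**
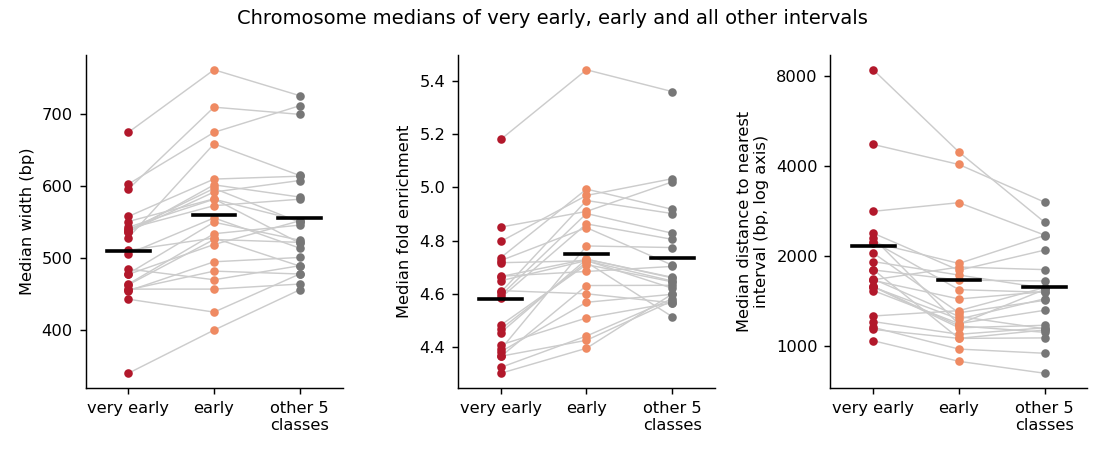
Chromosome medians of width in bp (left), fold enrichment (centre) and distance to the nearest interval of any class in bp on a log axis (right) for very early intervals, early intervals and intervals of the other 5 classes together. Each point is 1 of 23 chromosomes, grey lines join a chromosome's values and bars are means. Very early means are the lowest for enrichment (4.58-fold, against 4.75 for early and 4.74 for other intervals) and the highest for distance.

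Against the other 5 classes together, early included, the same measures differed in the same direction, but the calls for width, enrichment and distance depended on the ends of chromosomes. Over whole chromosomes, very early intervals were narrower (510.6 ± 67.8 against 555.6 ± 77.7 bp, on 21 of 23 chromosomes), less enriched (4.58 ± 0.21 against 4.74 ± 0.20-fold, on 18 of 23) and farther from their nearest neighbour (2164 ± 1564 against 1579 ± 564 bp, on 20 of 23; permutation tests, adjusted p = 8.5e-05, 5.67e-05 and 1.02e-04). When 5 Mb at each chromosome end was left out, where 20.2% of the other intervals and 8.19% of the very early ones lay, the log2 ratios shrank to −0.0325 for width, −0.0238 for enrichment and 0.147 for distance (permutation tests, adjusted p = 0.274, 0.0761 and 0.27). The share of intervals with 2 or more shared pieces passed with and without the ends, but was not compared at like width. It was 11.9 ± 3.59% in the very early class, against 15.1 ± 3.46% in the other 5 classes, a difference of −3.23 points that was negative on 22 of 23 chromosomes (permutation test, adjusted p = 5.67e-05), and −1.70 points without the ends (permutation test, adjusted p = 9.18e-04). The share of bases in peaks of both libraries did not pass in either case, at 0.741 points with the ends and 0.945 points without them (permutation tests, adjusted p = 0.107 and 0.138). The comparisons with early intervals passed without these ends too, at −0.0951 for width, −0.0416 for enrichment and 0.321 for distance (permutation tests, adjusted p = 9.18e-04, 9.92e-04 and 0.00454).

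Classes were then compared only inside windows of 1 Mb with at least 10 intervals of both, an alternative chosen after the data were examined. Very early runs of at least 10 intervals had a median span of 147.6 kb, so nearer surroundings can still differ between classes. No minimum number of windows per chromosome was set. Inside such windows very early intervals were less enriched than early ones on all 23 chromosomes (log2 ratio −0.0708, permutation test, adjusted p = 5e-05). They were narrower on average (log2 ratio −0.172), although wider on 2 of 23 (permutation test, adjusted p = 1.67e-04) and farther from a neighbour on 19 of 23 (0.246, permutation test, adjusted p = 0.016). Against the other 5 classes the log2 ratios inside windows were −0.215 for width, −0.0769 for enrichment and 0.301 for distance (permutation tests, adjusted p = 1.5e-04, 6.67e-05 and 0.0023).

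Inside very early runs, the outermost intervals lay farther from their neighbours than those in the interior, and a difference in enrichment was not detected. The edge was taken as the first 3 and last 3 intervals of each run of at least 10 (4290 intervals), and the interior as the other 13353. The median distance to the nearest interval was 2016 ± 953 bp at the edge and 1574 ± 1268 bp in the interior (mean ± SD, n = 21 chromosomes), longer at the edge on 19 of 21 (ratio 1.36, permutation test, adjusted p = 5.67e-05). The outermost interval had a median distance of 2536 bp, against 1398 bp for the second, 1354 bp for the third, 1367 bp for places 4 and 5 together and 1031 bp for intervals more than 20 places from the edge. Places 2 and 3 thus lay near places 4 and 5. With the outermost interval alone as the edge the log2 ratio was 1.099, against 0.44 with 3, and it was positive for all 19 chromosomes compared (permutation test over chromosomes, adjusted p = 3e-05). The gap across a run border had a median of 16305 bp (quartiles 5240 and 43629), and the gap inside a run 2789 bp (1028 and 8575). A border is more likely to fall into a long gap than into a short one, so a longer outer gap is in part built into the definition of a run.

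Edge intervals had a median enrichment of 4.62 ± 0.30-fold and interior intervals 4.62 ± 0.20-fold, with a log2 ratio of −0.0026 ± 0.073 (higher on 9 of 21 chromosomes, permutation test, adjusted p = 0.873). Edge intervals were narrower, 517 ± 69.2 against 549.7 ± 63.0 bp, a log2 ratio of −0.0921 that was negative for 16 of 21 (permutation test over chromosomes, adjusted p = 0.0316). The log2 ratio was −0.0722 to −0.0877 when chromosome 3, 4, 5, 6 or 9 was left out, and none of these 5 values passed (permutation tests, adjusted p = 0.0505 to 0.0625). Nor did it pass at a −log10 q of at least 5, where it was −0.0998 (permutation test, adjusted p = 0.117), and with 1 interval at each end taken as the edge its sign turned (0.00848, permutation test, adjusted p = 0.875).

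The very early list differs from the others in how it is written. Of its 23090 names, 21760 (94.2%) stand on 2 lines, 21359 of these with identical ends and 401 with ends that differ by 1 bp, whereas 2 names in the other 5 lists do. The 1330 names on a single line had a median width of 530 bp (529 bp for names on 2 lines), a median enrichment of 4.71-fold (4.62) and a median distance to the nearest interval of 1566.5 bp (1524.5 bp). Of the names on 1 line, 503 of 1330 bordered another class (37.8%, exact 95% binomial interval 35.2% to 40.5%), against 3566 of 21760 names on 2 lines (16.4%, 15.9% to 16.9%), a difference not tested over chromosomes. Why names are repeated is stated neither in the labels nor in the files.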

How the data were processed

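Both libraries (1 group) enter as 1 set, labelled as their intersection. Per the submitters' processing notes, BWA, MACS2 and hg19 were used. The deposited peak list gives, per replicate 1 peak, the fold enrichment (a ratio), the −log10 q and a score not used here; the score in the deposited timing lists is constant. Each interval took the fold of the replicate 1 peak sharing most bases with it; 19 very early intervals had none.

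Medians per chromosome with at least 20 intervals of both sets (5 runs, for runs) gave log2 ratios or differences in percentage points, tested by two-sided sign-flip permutation (100000 resamples, smallest p 1e-05). Chromosomes are not biological replicates. Benjamini-Hochberg adjustment covered 17 comparisons, and 4 on runs separately. The values at like width or fold average over 4 strata with at least 10 intervals of both sets. Alternatives changed the width, q and overlap minimums, left out chromosome ends or single chromosomes, joined or lengthened runs, and compared within 1 Mb windows. Code was tested on simulated data. Neither tool versions nor a control for peak calling are named in the labels. Members and comparisons were chosen with earlier results of these data known. Named regions are the 10 highest folds, 5 widest intervals and 10 largest runs. Sequences and genes, also those of the planned gene lists, were not analysed here, since no hg19 reference was used. Tools were scipy 1.17.1, pandas 2.3.3, matplotlib 3.10.9, numpy 2.4.6 and Python 3.11.15.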

Additional observations from a re-analysis of the deposited data

How the results depend on the processing

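Counting every line made the very early class 24.4% of the intervals. The log2 ratio of edge to interior width was −0.0604 (intervals of at least 200 bp), −0.0998 (−log10 q of at least 5), −0.0386 (at least 50% overlap with the joined peak), −0.0900 (without the first and last 5 Mb) and −0.043 (runs of at least 20), none of which passed, and −0.108 to −0.0722 with each chromosome left out. With 1 interval as the edge the sign turned (0.00848). Enrichment at the edge, which never passed, gave 0.017 with 1 interval, 0.0353 in runs of at least 20 and −0.0114 to 0.0050 with each chromosome left out. Without the first and last 5 Mb, very early against the other 5 classes no longer passed for width (−0.0325), enrichment (−0.0238), distance (0.147), enrichment at like width (−0.0163) or width at like fold (−0.0277). The share of bases in both libraries' peaks passed against the other 5 classes at a −log10 q of at least 5 (1.57 points) and turned sign within 1 Mb windows (−0.645, and −0.272 against early) and, against early, with intervals of at least 200 bp (−0.0635). The cause was not tested. Of the other recomputed comparisons, 126 kept direction and side of the threshold in these settings and 474 with a chromosome left out. Sequence and gene alternatives were not run, and leaving out a library could not be run on intersected lists. Read depth behind the intervals is unknown.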
